A study of Mus musculus with 40 samples.

Results

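The genes described here are the core and output genes of the circadian clock Bhlhe40, Bhlhe41, Dbp, Nr1d1, Nr1d2, Per1, Per2, Per3, Cry1 and Clock. These 10 genes were taken by symbol from the 24930 genes listed for males and the 25462 listed for females. All 10 were listed for both sexes, and all had a mean of 10 or more, the level a gene needed to be tested. RNA was sequenced from left ventricles of 10-week-old mice in 4 groups of 5: Rbm20 knockout males, wildtype males, Rbm20 knockout females and wildtype females. Rbm20 encodes an RNA-binding protein that directs splicing in striated muscle, and the series compares the sexes as well as the genotypes. Of the knockout allele, the strain and the time of day at which hearts were taken, nothing is given in the sources used here. Values are normalised read counts, the reads of a gene divided by a size factor of the library and averaged over the libraries of a mouse. They are scaled within a sex and not by gene length, so levels are compared neither between the sexes nor between genes.

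The circadian clock is a transcription loop that runs in most cells, heart muscle cells included, so that the RNA of its genes rises and falls over the day. CLOCK and its partner BMAL1, listed in the files as Arntl, bind E-box elements and switch on the Per, Cry, Nr1d1, Nr1d2, Dbp, Bhlhe40 and Bhlhe41 genes. PER and CRY proteins inhibit that pair, BHLHE40 and BHLHE41 repress at E-boxes, NR1D1 and NR1D2 repress Arntl through ROR elements, and DBP carries the rhythm to genes with D-boxes. In the heart the clock is known to time genes of metabolism and of ion channels.

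The DNA elements of this loop were looked up just upstream of the members, because several of them moved together among the mice. RefSeq promoter entries of the build GRCm38.p6 matched 8 of the 10 members, with 11 start sites, and Bhlhe40 and Per2 are only named. The 250 bases before each start were searched on both strands for the E-box CACGTG, the D-box TTANGTAA and the cyclic AMP response element TGACGTCA. The letters TNGGTCA, a loose form of the ROR element core, were searched as well, and N stands for any base. Shown are the 4 windows that hold a match, 5′ to 3′ on the strand of the gene, with the matches in capitals.
Per1, chr11:69098699-69098948, plus strand: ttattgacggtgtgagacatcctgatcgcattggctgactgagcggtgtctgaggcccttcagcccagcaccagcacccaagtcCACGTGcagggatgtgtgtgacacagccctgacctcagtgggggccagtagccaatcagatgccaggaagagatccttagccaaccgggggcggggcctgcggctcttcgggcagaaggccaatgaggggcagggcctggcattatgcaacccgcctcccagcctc
Cry1, chr10:85185055-85185304, minus strand: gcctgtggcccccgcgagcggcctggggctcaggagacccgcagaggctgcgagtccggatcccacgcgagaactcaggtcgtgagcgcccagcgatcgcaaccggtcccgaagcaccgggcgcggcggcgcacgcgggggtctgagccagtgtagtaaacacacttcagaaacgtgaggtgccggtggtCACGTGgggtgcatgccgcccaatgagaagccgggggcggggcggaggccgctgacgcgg
Bhlhe41, chr6:145865421-145865670, minus strand: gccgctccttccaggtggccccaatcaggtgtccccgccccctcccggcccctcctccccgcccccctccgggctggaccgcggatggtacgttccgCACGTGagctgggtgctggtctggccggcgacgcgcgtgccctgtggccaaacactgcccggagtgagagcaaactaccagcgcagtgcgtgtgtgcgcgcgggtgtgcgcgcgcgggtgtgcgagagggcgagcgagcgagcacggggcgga
Per3, chr4:151044666-151044915, minus strand: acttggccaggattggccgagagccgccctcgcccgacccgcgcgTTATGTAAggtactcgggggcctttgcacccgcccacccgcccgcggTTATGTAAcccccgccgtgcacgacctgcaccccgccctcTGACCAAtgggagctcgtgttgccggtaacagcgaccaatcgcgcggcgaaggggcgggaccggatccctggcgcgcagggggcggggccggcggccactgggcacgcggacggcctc
Per1, Cry1 and Bhlhe41 hold 1 E-box each, 166, 60 and 153 bases before the start. Of 32851 mouse promoter windows of the same length, 6.02% hold that E-box. Per3 holds 2 D-boxes, 205 and 158 bases before its start, where 2.06% of the windows hold any. It also matches the letters TNGGTCA on the opposite strand, read as TGACCAA and 118 bases before the start. There the open base N is a T, so the match to this loose pattern alone does not make it a ROR element. Of the windows, 9.19% match the same letters. None of these matches overlaps another. The cyclic AMP response element, in 1.55% of the windows, matched none of the 11, which says only that these letters are not in these windows. These positions are of GRCm38.p6 and are not on the scale of the gene positions given with the results, which are of GRCm39.

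The 39 libraries used ranged in depth from 2351987 to 16973229 gene reads (median 9043245). Rbm20 itself lay at 221 to 308 in knockout males, against 795 to 894 in wildtype males, and at 289 to 555 in knockout females, against 1001 to 1342 in wildtype females. The 6 ventricular markers were above 0 in every mouse. Their summed levels were 313753 to 405225 in knockout males, against 352644 to 431970 in wildtype males. In females these sums were 420244 to 520301 in knockouts, against 399003 to 506936 in wildtypes. Summed levels of the atrial markers were 187.4 to 217.2 in knockout males, against 200.2 to 2715 in wildtype males, and 279.7 to 26140 in knockout females, against 238.3 to 4445 in wildtype females. Of these markers, Myl7 and Sln were at 0 in some mice of each sex and Bmp10 in some males. Myl7, an atrial myosin light chain, was at 500 or more in knockout females ko_f_151 and ko_f_154, wildtype female wt_f_144 and wildtype male wt_m_112. The wildtype females wt_f_143 and wt_f_144 stood apart from all other females in several clock genes, so the female results for the members and the other named clock genes are given with and without them. Their Dbp values were 115.6 and 114.5, against 391.6 to 438.8 in the other wildtype females and 290.1 to 725.3 in the knockout females. Both libraries of each of these mice gave the same picture, with Dbp at 112.1 and 119.1 in wt_f_143 and at 124.5 and 104.5 in wt_f_144. Myl7 was 65.6 in wt_f_143 and 1416 in wt_f_144.

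Of the 10 members, Bhlhe40 and Bhlhe41 were higher in knockout hearts of both sexes, and no other member passed the test in either sex. In RNA of whole tissue, a change in the number of cells of a type and a change in RNA per cell cannot be told apart. In males 2 of 10 members rose and 0 fell (limma, adjusted p under 0.05), where 15.9% of the 12506 genes tested passed in either direction and 7.6% rose. In females 2 of 10 rose and 0 fell, where 10.8% of 12781 genes passed and 5.28% rose. The median log2 change of the members was 0.09 in males, against -0.0012 over all genes tested, and 0.56 in females with all mice, against 0.0014. By unadjusted p under 0.05, 4 members passed in males, where 29% of genes did, and 7 in females with all mice, where 25.6% did. Without wt_f_143 and wt_f_144, Nr1d1, Nr1d2 and Per3 no longer had an unadjusted p under 0.05 (limma, 0.0988, 0.239 and 0.134). Their log2 changes were then 0.39, 0.14 and 0.18, against 1.10, 0.53 and 0.57 with all mice. Bhlhe40, Bhlhe41, Per1 and Per2 stayed under 0.05 by unadjusted p. By adjusted p, 1 of 10 members passed in females without the 2 mice, Bhlhe40, where 11.4% of genes did. The knockout and wildtype mice did not overlap for 1 member in males, where 12.7% of genes showed this, and for 0 members in females, where 9.14% did.

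**Figure D1:**
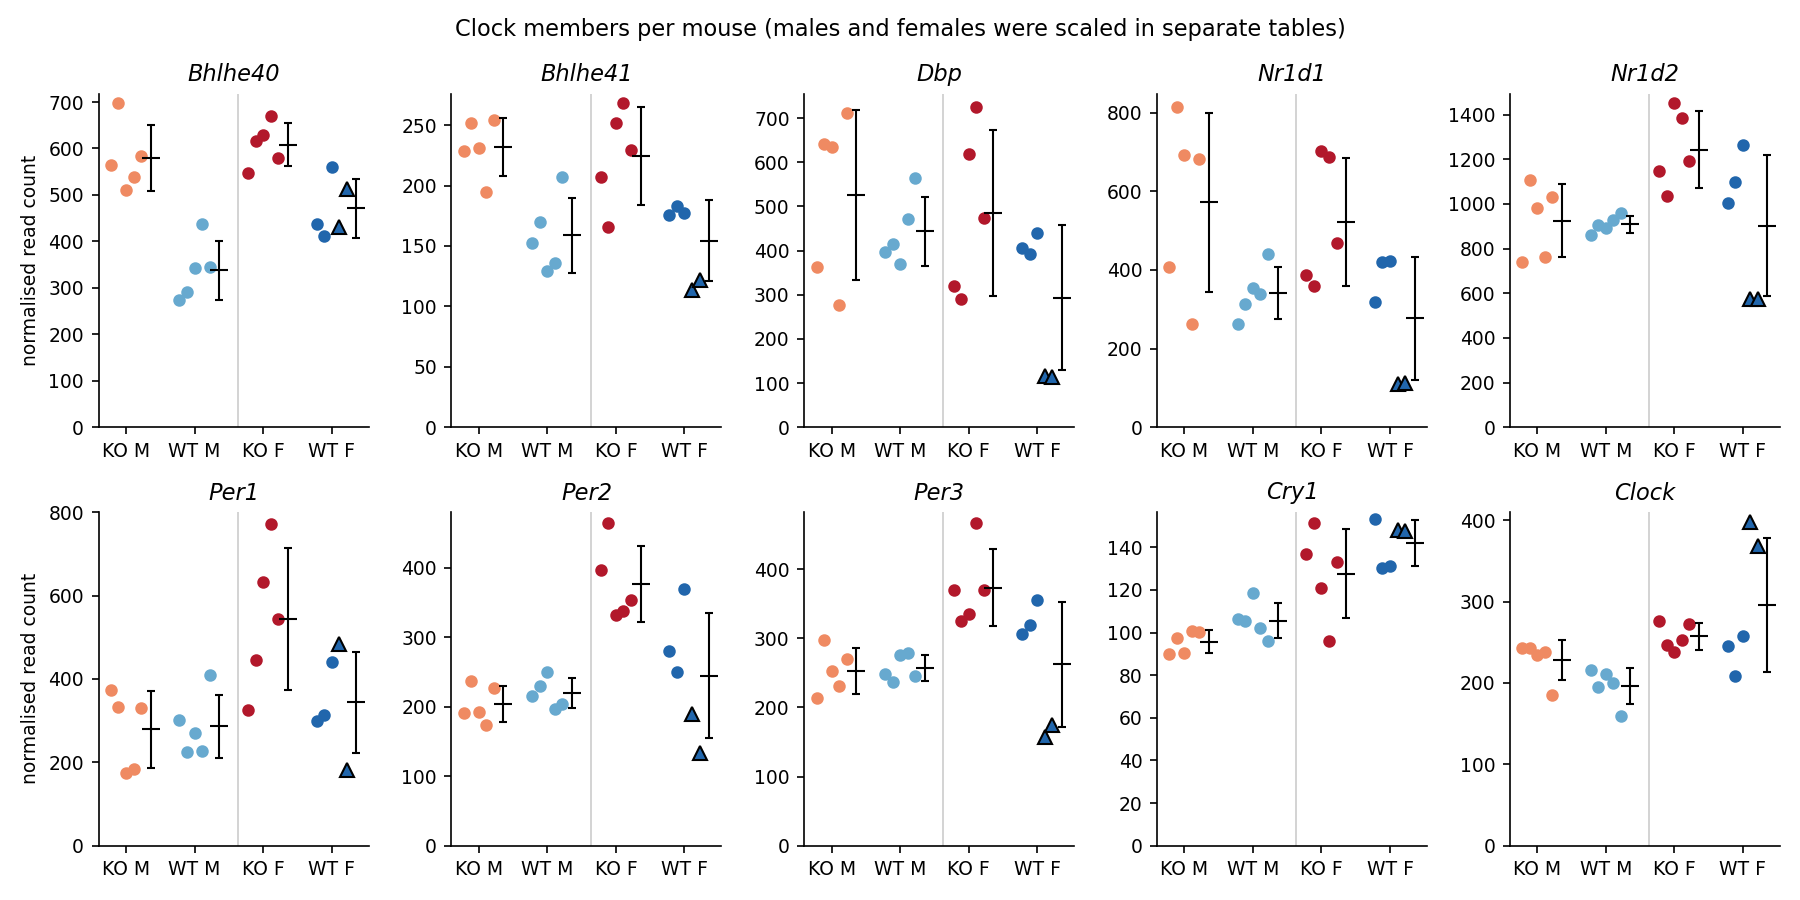
Normalised read count of each clock member in every mouse, knockout (KO) left of wildtype (WT), with males (M) left and females (F) right of the grey line; the black bar is the mean ± SD of 5 mice. Triangles mark wt_f_143 and wt_f_144, which lie at 115.6 and 114.5 in Dbp, under all other females.

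Bhlhe40 encodes a basic helix-loop-helix repressor that acts at E-boxes and that also answers to low oxygen and other signals (ENSMUSG00000030103.12, GRCm39 chr6:108637590-108643886, plus strand). Its values in knockout males were 511.2, 539.4, 565.2, 584.5 and 697.2, against 274.8, 291.3, 342.3, 344.0 and 436.8 in wildtype males. Every knockout male lay above every wildtype male, an order that 6.14% of the genes tested in males showed. The means were 579.5 ± 71.4 in knockout and 338 ± 63.2 in wildtype males (SD, n = 5 each), a log2 change of 0.79 ± 0.12 (SE) and 1.73-fold, with an adjusted p of 0.000301.

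In knockout females Bhlhe40 stood at 547.4, 578.5, 616.9, 629.8 and 670.0, against 412.5, 430.3, 436.6, 513.5 and 561.1 in wildtype females. The groups met at one mouse: wt_f_142, the highest wildtype, lay above the lowest knockout, and 4 of 5 knockout females lay above every wildtype female. The means were 609 ± 47.3 in knockout and 471 ± 63.6 in wildtype females (SD, n = 5 each), a log2 change of 0.38 ± 0.09 and 1.30-fold, with an adjusted p of 0.0175. Bhlhe40 did not share the low values of the 2 wildtype females that stood apart. Without them the log2 change was 0.38 ± 0.10 and the adjusted p 0.0363. The call was lost without wt_f_141 (log2 change 0.33, adjusted p = 0.052). It was also lost without the mice with Myl7 of at least 500, where the log2 change was 0.38 (adjusted p = 0.0568).

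Compared as groups, knockout hearts also had higher fibroblast markers, and whether these followed Bhlhe40 from mouse to mouse was not tested. Of 5 fibroblast markers, 4 rose in males and 3 in females, and their summed level was 14512 to 16318 in knockout males, against 8535 to 12919 in wildtype males, and 15259 to 20973 in knockout females, against 11933 to 15975 in wildtype females. No fibroblast marker was at 0 in any mouse, and the part of fibroblasts in the change of Bhlhe40 was not tested. Of 5 endothelial markers, 1 fell in males and 2 in females, with sums of 3913 to 5131 in knockout males, against 4818 to 5576 in wildtype males, and of 4833 to 5596 in knockout females, against 6061 to 6702 in wildtype females. Of the adipocyte markers, 1 of 2 tested fell in males and 2 of 5 rose in females, with sums of 3939.6 to 5848 in knockout males, against 5573 to 8225 in wildtype males, and of 5325 to 7503 in knockout females, against 5849 to 6889.6 in wildtype females. These sums are mostly Fabp4, the marker that fell in males, with means of 4547 in knockout and 6442 in wildtype males. In females its means were 5951 and 6133. Adipoq, Plin1 and Cidec had means under 10 in males and were not tested. In females Cidec and Cfd rose, by 2.18 and 2.94 on the log2 scale. Adipoq and Plin1, at 2.10 and 2.05, did not pass. No endothelial or adipocyte marker was at 0 in any mouse, and their part was not tested either. Of the red blood cell markers, 2 of 4 tested fell in males and 0 of 4 in females, with sums of 11400.1 to 22307 in knockout males, against 17110.4 to 39976 in wildtype males, and of 7741 to 20065 in knockout females, against 10366 to 35446 in wildtype females. Hba-a2 was at 0 in some mice of each sex. Of the atrial markers, 2 of 5 tested fell in males and 0 of 5 passed in females.

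Bhlhe41, the paralogue of Bhlhe40 with the same kind of action at E-boxes, lies elsewhere on the same chromosome (ENSMUSG00000030256.12, chr6:145803969-145811284, minus strand). It measured 194.6, 228.5, 231.0, 252.2 and 254.0 in knockout males, against 129.4, 135.9, 152.7, 170.0 and 206.9 in wildtype males. All but the lowest knockout male lay above every wildtype male. The mean was 232 in knockout and 159 in wildtype males, a log2 change of 0.56 ± 0.12 and 1.47-fold, with an adjusted p of 0.00481. Both Bhlhe40 and Bhlhe41 kept their call in males under all 22 alternatives, among them leaving out each mouse in turn, edgeR and DESeq2.

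In knockout females Bhlhe41 measured 165.4, 206.8, 229.3, 252.2 and 268.5, against 113.7, 121.7, 175.7, 177.6 and 183.1 in wildtype females. The lowest values, 113.7 and 121.7, belong to wt_f_143 and wt_f_144. The means were 224 ± 40.4 in knockout and 154.4 ± 33.7 in wildtype females (SD, n = 5 each). The log2 change of 0.55 ± 0.16 (1.46-fold, adjusted p 0.0447) lay close to the threshold. It was 0.31 ± 0.14 without those 2 mice, with an adjusted p of 0.18, and the call was lost in 7 of the 10 fits that leave out 1 mouse.

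**Figure D2:**
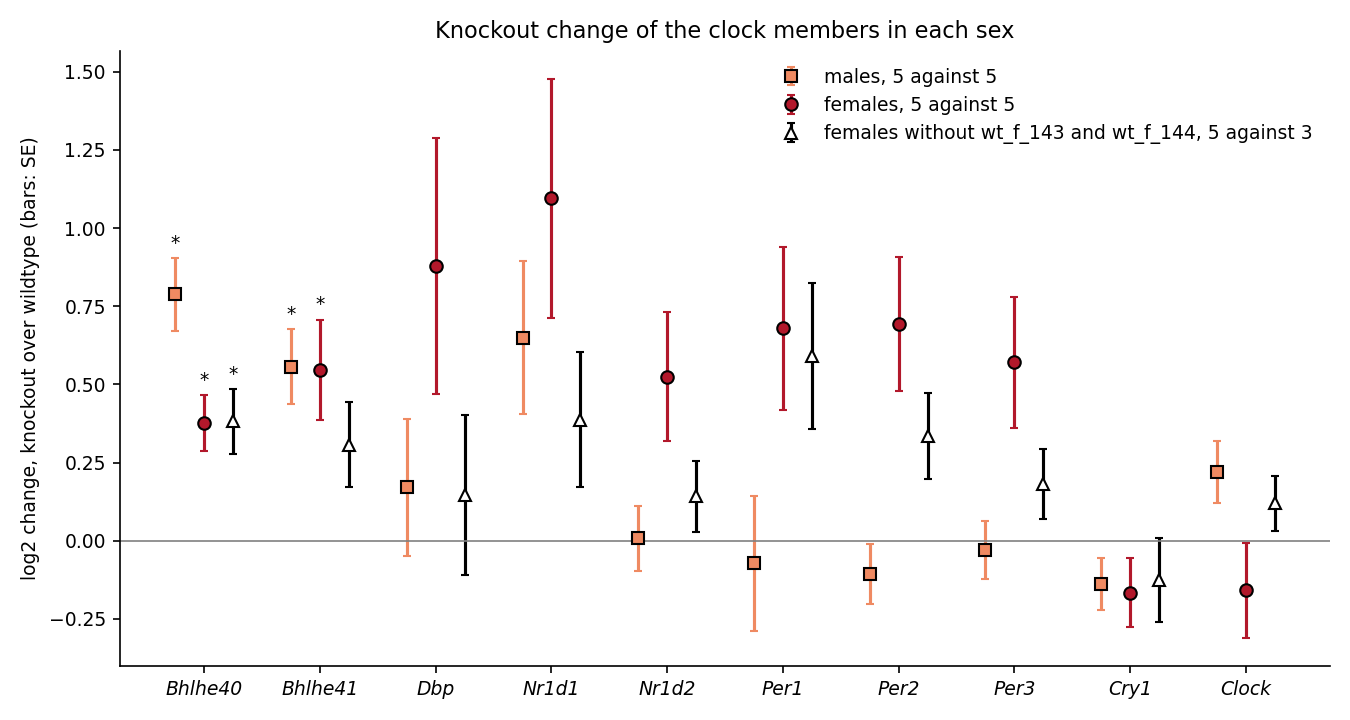
Log2 change of each member, knockout over wildtype, with its standard error, in males (squares), females (circles) and females without wt_f_143 and wt_f_144 (open triangles); a star marks an adjusted p under 0.05. Only Bhlhe40 carries a star in all 3 fits, at 0.79, 0.38 and 0.38, while Dbp drops to 0.15 and Clock turns to 0.12 without the 2 mice.

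Nr1d1 and Nr1d2 encode the REV-ERB receptors, heme-binding repressors that form the second loop of the clock. Nr1d1 (ENSMUSG00000020889.12, chr11:98658758-98666159, minus strand) had 263.0, 407.6, 682.7, 691.4 and 813.8 in knockout males, against 262.2, 313.0, 337.7, 353.8 and 439.6 in wildtype males. The knockout males fell apart into ko_m_127, ko_m_128 and ko_m_97, all above every wildtype male, and ko_m_106 and ko_m_130 within the wildtype range. The means were 572 ± 228 in knockout and 341 ± 65.0 in wildtype males. The log2 change was 0.65 ± 0.25 with an adjusted p of 0.0892, which missed the threshold. Without ko_m_130, the lowest knockout male, it was 0.90 with an adjusted p of 0.00387, the only 1 of the 10 fits without 1 mouse that passed. Across those fits the adjusted p reached 0.204. On the recovered reads edgeR also called Nr1d1 (adjusted p 0.0451).

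Nr1d1 in knockout females had 360.1, 388.2, 469.3, 687.6 and 702.5, against 110.2, 113.1, 318.0, 419.5 and 422.0 in wildtype females. Again wt_f_143 and wt_f_144 were the lowest, and the other wildtype females overlapped the knockout females. With all mice the log2 change was 1.10 ± 0.38 (adjusted p 0.0878), and it was 0.39 ± 0.22 (adjusted p 0.293) without these 2. The 3′ end of Nr1d1 shares 1075 bases with Thra on the opposite strand, and whether reads were counted by strand is not given in the sources used here. Thra, the thyroid hormone receptor alpha gene, had log2 changes of 0.16 ± 0.07 in males (adjusted p 0.12) and -0.12 ± 0.06 in females (adjusted p 0.287). The part of the shared bases in the values of Nr1d1 was not tested.

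Nr1d2 (ENSMUSG00000021775.12, chr14:4230569-4265642, plus strand) ranged from 741.3 to 1107 in knockout males, against 858.8 to 959.1 in wildtype males. The wildtype males were the narrowest group for this gene, with an SD of 0.061 on the log2 scale, against 0.262 in the knockout males. Its log2 change was 0.01 ± 0.10 in males and 0.53 ± 0.21 in females (adjusted p 0.973 and 0.128). In females it was 0.14 ± 0.11 without wt_f_143 and wt_f_144, whose values of 573.6 and 575.6 were under the 1005 to 1264 of the other wildtype females and the 1035 to 1451 of the knockout females.

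Dbp, a PAR bZIP activator that drives clock output (ENSMUSG00000059824.13, chr7:45354512-45359627, plus strand), had 277.6, 363.2, 634.6, 641.8 and 710.7 in knockout males, against 368.9, 397.0, 415.2, 470.6 and 564.9 in wildtype males. As for Nr1d1, ko_m_127, ko_m_128 and ko_m_97 were above every wildtype male, while ko_m_106 and ko_m_130 were below every one. The log2 change of 0.17 ± 0.22 did not pass (adjusted p 0.665). In females Dbp had 290.1, 320.3, 472.8, 619.9 and 725.3 in knockouts, against 114.5, 115.6, 391.6, 406.8 and 438.8 in wildtypes. The log2 change was 0.88 ± 0.41 (adjusted p 0.197), and 0.15 ± 0.26 (adjusted p 0.775) without wt_f_143 and wt_f_144.

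Per1, Per2 and Per3 encode the PERIOD proteins, which inhibit CLOCK and BMAL1. Per1 (ENSMUSG00000020893.18, chr11:68986043-69000786, plus strand) is also induced directly by hormones and other acute signals. It ranged from 174.2 to 373.1 in knockout males, against 224.5 to 408.4 in wildtype males, and from 326.6 to 770.5 in knockout females, against 181.6 to 484.6 in wildtype females. Its log2 change was -0.07 ± 0.22 in males (adjusted p 0.865) and 0.68 ± 0.26 in females (adjusted p 0.12). In Per1 the 2 wildtype females that stood apart differed from each other, with wt_f_143 the highest wildtype at 484.6 and wt_f_144 the lowest at 181.6. Without them the log2 change kept most of its size, at 0.59 ± 0.23, with an adjusted p of 0.136. Without ko_f_150, the lowest knockout female, it was 0.85 and just passed (adjusted p 0.0497), the only 1 of the 10 fits without 1 mouse that did.

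Per2 (ENSMUSG00000055866.10, chr1:91343704-91387046, minus strand) had 332.0, 337.1, 353.3, 395.9 and 463.3 in knockout females, against 133.2, 189.3, 250.2, 279.7 and 369.6 in wildtype females. Only wt_f_142, at 369.6, lay within the knockout range. The log2 change of 0.69 ± 0.21 came close to the threshold (adjusted p 0.0559). It passed without wt_f_142 (0.86, adjusted p 0.0154), as in 1 of the 10 fits without 1 mouse, and with DESeq2 on the recovered reads (0.63, adjusted p 0.0297). The log2 change was 0.34 ± 0.14 (adjusted p 0.149) without wt_f_143 and wt_f_144. In males Per2 lay at 174.1 to 236.4 in knockouts, against 196.5 to 250.2 in wildtypes, a log2 change of -0.11 ± 0.10 (adjusted p 0.513).

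Per3 (ENSMUSG00000028957.13, chr4:151088109-151129122, minus strand) lies whole within the annotated span of Camta1 on the same strand. Its log2 change was -0.03 ± 0.09 in males (adjusted p 0.871) and 0.57 ± 0.21 in females (adjusted p 0.103). For females it was 0.18 ± 0.11 without wt_f_143 and wt_f_144, at 157.1 and 174.9, where the other wildtype females had 305.5 to 355.7 and the knockout females 324.5 to 467.1. Camta1, a transcription factor gene, rose in males by 0.43 ± 0.08 on the log2 scale (adjusted p 0.00157), where Per3 did not pass, and had a log2 change of 0.20 ± 0.08 in females (adjusted p 0.153).

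Cry1 encodes a cryptochrome, a strong repressor of CLOCK and BMAL1 (ENSMUSG00000020038.11, chr10:84967564-85020928, minus strand). It had 90.0 to 100.8 in knockout males, against 96.2 to 118.4 in wildtype males, and 96.0 to 151.4 in knockout females, against 130.2 to 153.4 in wildtype females. The log2 changes of -0.14 ± 0.08 in males (adjusted p 0.291) and -0.17 ± 0.11 in females (adjusted p 0.382) were the closest of any member between the sexes after those of Bhlhe41. The values of wt_f_143 and wt_f_144, 148.3 and 147.6, lay within the range of the other wildtype females, and without them the log2 change was -0.13 ± 0.14 (adjusted p 0.62).

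Clock, the gene of the activator itself (ENSMUSG00000029238.12, chr5:76357715-76452639, minus strand), had 184.8, 233.9, 237.9, 242.7 and 243.5 in knockout males, against 159.6, 194.6, 199.8, 211.5 and 216.3 in wildtype males. All knockout males but ko_m_97 lay above every wildtype male. The log2 change of 0.22 ± 0.10 did not pass (adjusted p 0.159). Without ko_m_97 it was 0.29 and just passed (adjusted p 0.0488), the only 1 of the 10 fits without 1 mouse that did. In females Clock had 238.0, 247.1, 252.9, 272.0 and 276.6 in knockouts, against 209.1, 245.6, 257.3, 368.7 and 398.2 in wildtypes. Here wt_f_143 and wt_f_144 were the highest of the females, opposite to their place in Dbp, Nr1d1, Nr1d2 and Per3. The log2 change was -0.16 ± 0.15 with all mice (adjusted p 0.566) and turned to 0.12 ± 0.09 without them (adjusted p 0.449).

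The difference between the sexes was tested directly, by subtracting the log2 change in females from that in males in 1 limma fit over the 20 mice. None of the 10 members passed, and 0 of 12651 genes did (0%), with 1031 genes, or 8.15%, at an unadjusted p under 0.05. edgeR also called 0 genes and DESeq2 49 (0.387%), none of them a member. The member with the smallest p was Per2, with a change of -0.11 in males against 0.69 in females, a difference of -0.80 ± 0.25 (p = 0.00431, adjusted p 0.301). Bhlhe40 changed by 0.79 in males and 0.38 in females, a difference of 0.41 ± 0.16 (adjusted p 0.429). Without wt_f_143 and wt_f_144 the Per2 difference was -0.44 ± 0.17 and that of Dbp 0.02 ± 0.38, against -0.71 ± 0.51 with all mice.

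Some members varied far more among mice of a group than most genes did. The SD of the log2 value within groups, over 20 mice, was 0.66 for Dbp and 0.65 for Nr1d1, which placed them at the 98.9th and 98.8th percentile of the 12651 genes, whose median was 0.171. Per1 followed at 0.48 and the 96.4th percentile. Bhlhe40, at 0.19 and the 59.0th percentile, and Cry1, at 0.15 and the 39.4th percentile, varied about as much as other genes. For Dbp the SD was 0.60 in knockout males, against 0.24 in wildtype males, and 0.58 in knockout females, against 1.01 in wildtype females. Without wt_f_143 and wt_f_144 the SD over groups was 0.46 for Dbp and 0.47 for Nr1d1.

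Within the groups several members moved together. The deviation of each mouse from its group mean was correlated with that of Dbp for 17 genes, with 100000 permutations within groups and Benjamini-Hochberg adjustment over the 17. Nr1d1 followed Dbp with a Pearson r of 0.96 and a Spearman rho of 0.93 (adjusted permutation p = 5.67e-05 and 0.000312). Without wt_f_143 and wt_f_144, the mice farthest from the median in Dbp, r was 0.92 and rho 0.90 (adjusted p = 0.000748 and 0.00157). For Nr1d2 r was 0.95 (adjusted p = 4.25e-05), and 0.88 without the 2 mice (adjusted p = 0.000748).

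Bhlhe41 also followed Dbp, with an r of 0.86 and a rho of 0.89 (adjusted p = 5.67e-05 and 4.25e-05), and an r of 0.77 without the 2 mice (adjusted p = 0.000748). For its paralogue Bhlhe40 r was 0.21 and rho 0.23 and neither passed (adjusted p = 0.379 and 0.334). Without the 2 mice its rho of 0.51 passed (adjusted p = 0.0393) and its r of 0.36 did not (adjusted p = 0.103). The r of Bhlhe40 with Bhlhe41 was 0.03. Arntl, which NR1D1 and NR1D2 repress, ran opposite to Dbp with an r of -0.94 and a rho of -0.92 (adjusted p = 4.25e-05 for both), and an r of -0.86 without the 2 mice (adjusted p = 0.000748). The males entered this correlation although Arntl lay at only 5.7 to 22.05 in them, with a mean under 10. With all mice its unadjusted permutation p of 1e-05 is the smallest that 100000 permutations can give. Clock (-0.77) and Per3 (0.85) passed with all mice (adjusted p = 0.00476 and 0.00421) and not without the 2, at -0.42 and 0.59 (adjusted p = 0.103 and 0.0822). The r of Per2 with Dbp was 0.55 with all mice and turned to -0.09 without them. Levels of all these genes came from the same libraries, and library depth did not enter the correlation.

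**Figure D3:**
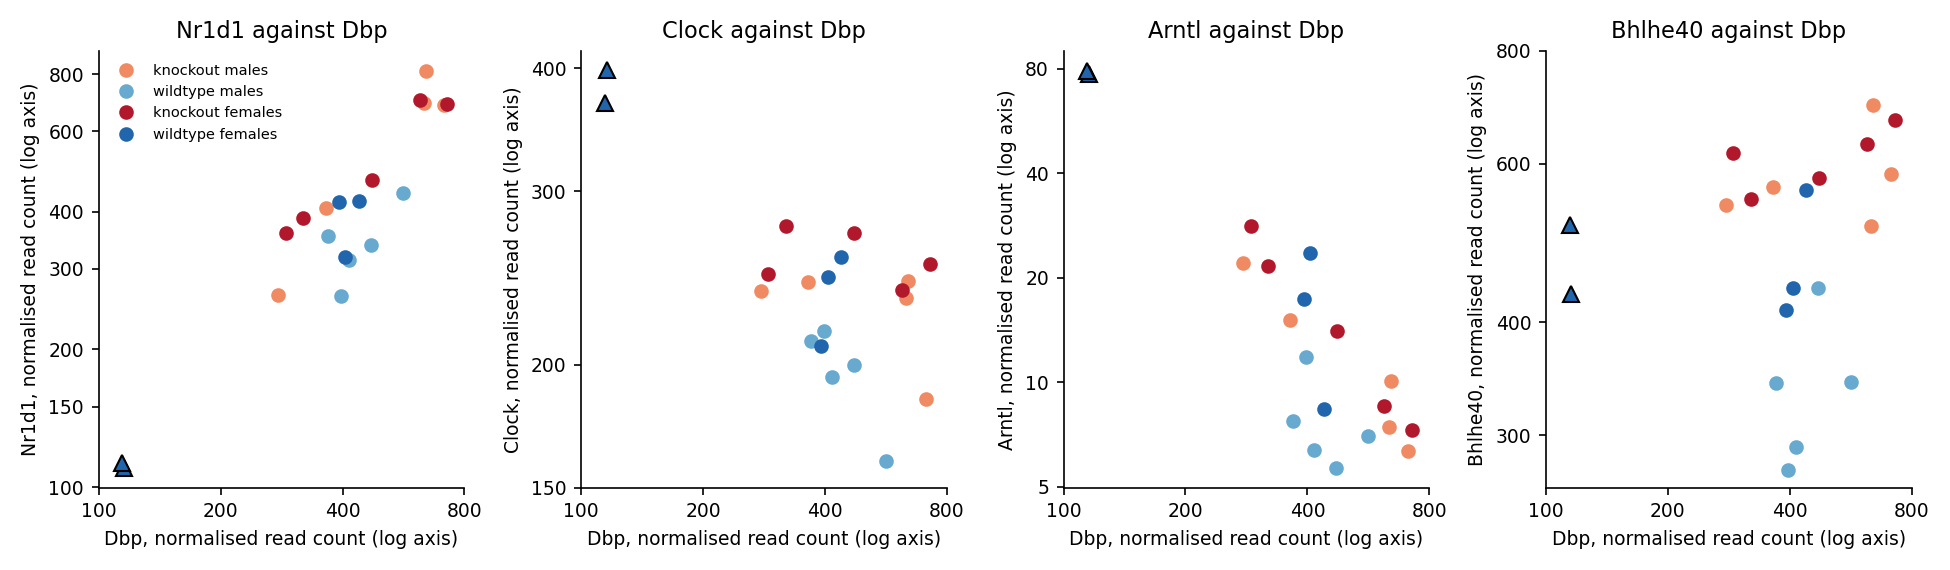
Nr1d1, Clock, Arntl and Bhlhe40 against Dbp in each of the 20 mice, as normalised read counts on log axes, with males and females scaled separately; triangles are wt_f_143 and wt_f_144. Nr1d1 climbs with Dbp and Arntl drops with it, while the knockout males lie above the wildtype males in Bhlhe40 whatever their Dbp.

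Outside the members, the genes whose deviations were most like those of Dbp were Fam76a (r = 0.93), Tcap (0.90), Tef (0.88), Gstt2 (0.87) and Hlf (0.87), out of 9571 genes with a mean of at least 50. Tef and Hlf encode the other PAR bZIP factors, and Tcap encodes telethonin, a Z-disc protein. The most opposite were Rcan1 (-0.88) and Nfil3 (-0.85). Nfil3 encodes the repressor that competes with DBP at D-boxes. The genes most like Bhlhe40 were Tmem263 (0.69), Ifit1bl2 (0.69), Nsun3 (0.69), C2cd3 (0.67) and Ubr1 (0.67), and none of them was on the clock lists. These r values were chosen as extremes and carry no test.

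**Figure D4:**
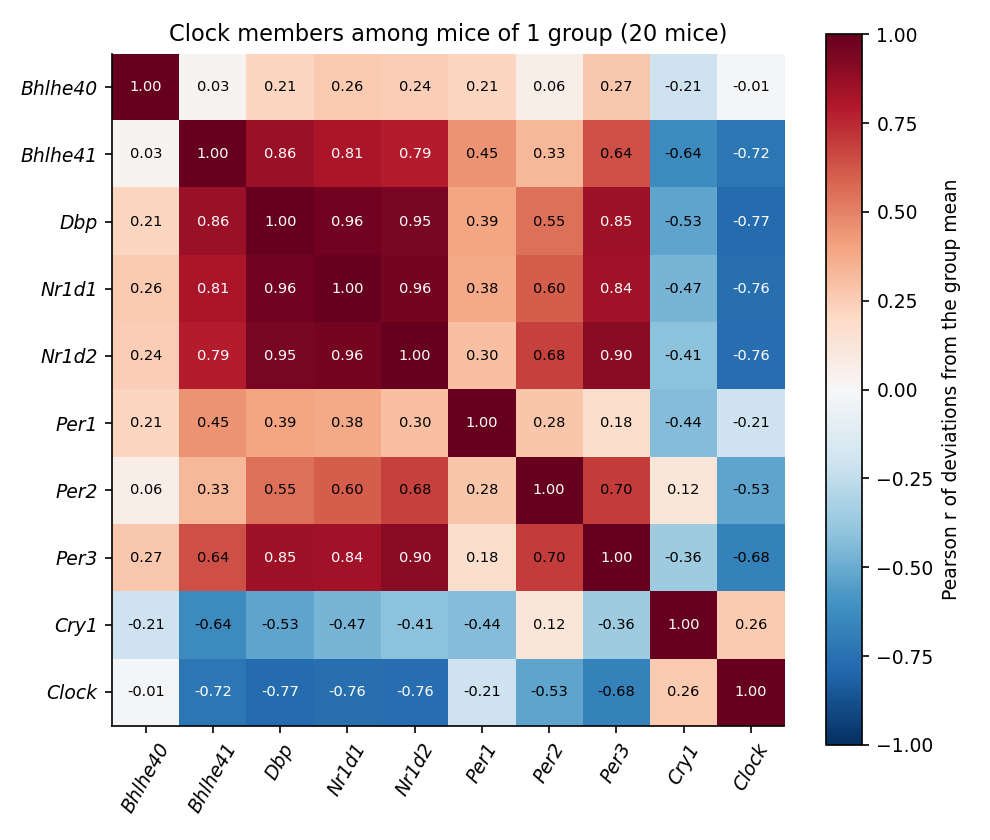
Pearson r between the clock members of the deviations of 20 mice from their group means, from -1 (blue) to 1 (red). Dbp, Nr1d1, Nr1d2, Per3 and Bhlhe41 form a red block, Clock is blue against all of them, and the row of Bhlhe40 holds no value beyond 0.27 in size.

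The rest of the clock was taken from 5 lists of 46 genes, of which 44 were listed in each sex. In males 1 of 39 tested genes rose and 3 fell, with a median log2 change of -0.02. In females 3 of 41 rose and 1 fell, with a median of 0.01. The shares of all genes that rose and fell were 7.6% and 8.29% in males, and 5.28% and 5.51% in females. Among activators and ROR receptors, Rorb rose in both sexes and none of the others tested passed, of 3 tested in males and 5 in females. Rorb, a receptor of the ROR family that acts at the same elements as NR1D1, stood at 18.03 to 41.4 in knockout males, against 10.5 to 20.6 in wildtype males (log2 change 0.91 ± 0.22, adjusted p 0.0114). It stood at 30.3 to 58.3 in knockout females, against 9.8 to 23.8 in wildtype females, with no overlap (1.42 ± 0.22, adjusted p 0.00167), and its change was 1.61 ± 0.23 without wt_f_143 and wt_f_144 (adjusted p 0.00112).

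Arntl, the partner of CLOCK, had 7.3 to 28.2 in knockout females, against 8.4 to 79.1 in wildtype females, where 77.2 and 79.1 belonged to wt_f_143 and wt_f_144 and the other wildtype females had 8.4 to 23.6. Its log2 change in females was -1.01 ± 0.56 (adjusted p 0.283), and -0.10 ± 0.44 without these 2 (adjusted p 0.918). In males its mean was under 10, with 6.3 to 22.05 in knockouts, against 5.7 to 11.8 in wildtypes, and it was not tested. Npas2, which can stand in for CLOCK, was likewise under the filter in males and had a log2 change of -0.45 ± 0.28 in females (adjusted p 0.342), and of -0.20 ± 0.31 without the 2 mice. Rora did not pass in males or females, at 0.07 ± 0.08 and 0.07 ± 0.14 (adjusted p 0.627 and 0.82), and in females it turned to -0.18 ± 0.07 without the 2 mice (adjusted p 0.153).

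Neither of the other repressors passed. Cry2, the second cryptochrome gene, had a log2 change of -0.09 ± 0.11 in males and 0.11 ± 0.09 in females (adjusted p 0.641 and 0.49), and of 0.03 ± 0.09 in females without wt_f_143 and wt_f_144. Ciart, an inhibitor of CLOCK and BMAL1, had a log2 change of 0.01 ± 0.30 in males and 1.19 ± 0.38 in females (adjusted p 0.99 and 0.0656). It passed in females in 2 of the 10 fits without 1 mouse, those without ko_f_150 (1.41, adjusted p 0.0346) or wt_f_142 (1.41, adjusted p 0.0395). Its log2 change was 0.77 ± 0.39 without wt_f_143 and wt_f_144. Of the other PAR bZIP factors and their antagonist, 0 of 3 passed in either sex. The log2 change of Hlf was -0.02 ± 0.12 in males and 0.46 ± 0.21 in females, and 0.09 ± 0.09 in females without wt_f_143 and wt_f_144. That of Tef was -0.16 ± 0.08 in males and 0.12 ± 0.17 in females, and it turned to -0.18 ± 0.11 without the 2 mice. That of Nfil3 was 0.02 ± 0.18 in males and -0.36 ± 0.24 in females, and -0.03 ± 0.23 without them.

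Among 19 tested kinases, ligases and partners, Csnk1e, the gene of the kinase casein kinase 1 epsilon that marks PER proteins for decay, fell by 0.25 ± 0.08 on the log2 scale in males (adjusted p 0.0368). It was at 283.1 to 293.9 in knockout males, against 304.8 to 401.3 in wildtype males, and 8 of the 10 fits without 1 mouse lost the call. None of these 19 passed in females, where the log2 change of Csnk1e was -0.14 ± 0.08 (adjusted p 0.282), and -0.24 ± 0.07 without wt_f_143 and wt_f_144 (adjusted p 0.0598). Among 12 tested clock-controlled outputs, 2 fell in males, and 2 rose and 1 fell in females.

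Kcnip2, the subunit of the transient outward potassium channel whose rhythm in heart runs through Klf15, fell in both sexes. It had 959.5 to 1263 in knockout males, against 1408 to 1937 in wildtype males, and 1363 to 1834 in knockout females, against 2044 to 2264 in wildtype females. The groups did not overlap in either sex, and the log2 changes were -0.59 ± 0.10 in males (adjusted p 0.000964) and -0.49 ± 0.07 in females (adjusted p 0.00147), and -0.48 ± 0.09 in females without wt_f_143 and wt_f_144 (adjusted p 0.00691). Usp2, a clock-driven deubiquitinase, fell by 0.47 ± 0.08 in males, with 513.1 to 715.4 in knockouts, against 793.6 to 872.4 in wildtypes (adjusted p 0.00151). In females its log2 change was 0.07 ± 0.14 (adjusted p 0.79), and -0.07 ± 0.14 without the 2 mice. The difference between the sexes of -0.54 ± 0.17 did not pass (adjusted p 0.3).

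Tcap and Cys1 rose in females. Tcap, a target of CLOCK in heart muscle, had 11074 to 17078 in knockout females, against 4546 to 10323 in wildtype females (log2 change 0.92 ± 0.23, adjusted p 0.0199). Its lowest values, 4836 and 4546, were those of wt_f_143 and wt_f_144, and without them the change was 0.50 ± 0.13 (adjusted p 0.0271). Cys1 had 99.8 to 116.4 in knockout females, against 56.1 to 91.2 in wildtype females (0.59 ± 0.13, adjusted p 0.0109), and a change of 0.37 ± 0.09 without the 2 mice (adjusted p 0.0234). The call of Tcap was lost without ko_f_154 (adjusted p 0.0506), and that of Cys1 without the mice with Myl7 of at least 500 (adjusted p 0.0704). In males neither passed, with log2 changes of 0.08 ± 0.16 for Tcap and 0.33 ± 0.13 for Cys1 (adjusted p 0.776 and 0.107).

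The authors also tested exon bins, the numbered pieces into which the exons of a gene are cut, for a change in their share of the gene. They used DEXSeq, with libraries as replicates. Their deposited table for males lists only bins whose unadjusted p was 0.05 or lower, 23819 in all, of which 9.06% had an adjusted p under 0.05, and 18 listed bins belonged to 7 of the clock members. Of these 18, 5 had an adjusted p under 0.05, and all 5 were bins of Dbp. In the authors' deposited table the Dbp bins 5 and 10 had the smallest values, with adjusted p-values of 5.05e-05 and 7.2e-05. For females the authors' deposited table lists 15053 bins, 5.53% of them under 0.05, and 17 bins of 7 members, 0 of them under 0.05. The lowest of those was bin 1 of Bhlhe40, at an adjusted p of 0.0549 in the authors' deposited table.

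The ratio of reads in Dbp bin 5 to those in bin 10 was 1.14, 1.58, 1.59, 1.74 and 1.80 in knockout males, against 0.73, 0.95, 0.99, 1.06 and 1.10 in wildtype males. The groups did not overlap, at 1.57 ± 0.26 in knockout and 0.97 ± 0.14 in wildtype males (SD, n = 5 each), and because the bins were chosen for their p-values this ratio carries no further test. Of the 2 knockout males with the least Dbp, ko_m_130 at 277.6 had the lowest ratio of the knockouts and ko_m_106 at 363.2 the highest. Where the bins lie within Dbp is not given in the tables. Dbp shares 737 bases with Sphk2 on the opposite strand, and Sphk2, a sphingosine kinase gene, had log2 changes of 0.04 ± 0.11 in males and 0.00 ± 0.10 in females.

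**Figure D5:**
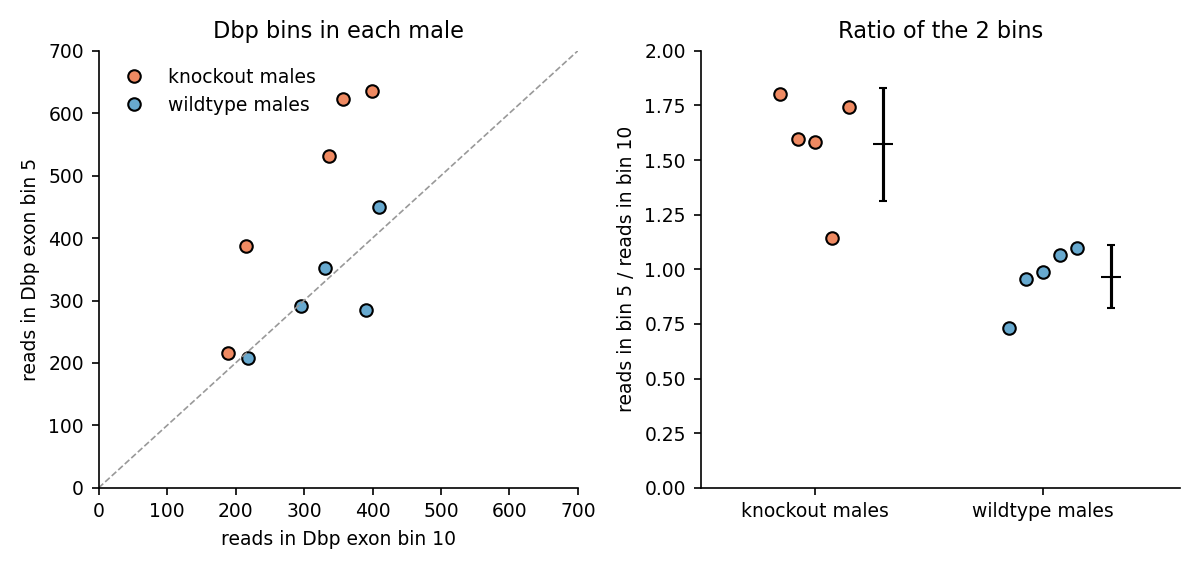
Reads in exon bins 5 and 10 of Dbp in each male, summed over the libraries of a mouse (left, with the line of equal reads), and their ratio (right, with mean ± SD). Knockout males lie at 1.14 to 1.80 and wildtype males at 0.73 to 1.10.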

How the data were processed

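Total RNA of left ventricles was sequenced on a BGISEQ-500, per the labels' protocols. Reads were aligned with STAR 2.7.10a to GRCm39 and tested with DESeq2, per the submitters' processing notes; the counting program and its use of strand are not given in the sources used here. The gene tables, 1 per sex, hold a signal that the authors made by dividing each library's counts by a size factor: all values were whole multiples of 1 step (100%, tolerance 1e-06 of a read), with size factors of 0.326 to 2.34. The authors' deposited log2 fold changes and p-values treat libraries as replicates and served as an alternative. The exon tables hold the authors' deposited counts per bin. One female column matches no label and was not used, so ko_f_154 has 1 library.

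Libraries of 1 mouse differed by a chi-square per degree of freedom of 1.07 to 1.84 (19 pairs), against 2.77 to 32.6 between mice of a group (152 pairs), so the mouse, known by its number in the labels, was the replicate. Mouse means on the log2(value + 1) scale were tested with limma 3.58.1 (R 4.3.3; trend, two-sided, Benjamini-Hochberg over genes with a mean of at least 10, threshold 0.05), tested on simulated data. edgeR 4.0.16 and DESeq2 1.42.0 ran on the recovered reads and called 2063 and 2280 genes in males, and 1330 and 1683 in females. Other alternatives were TMM rescaling, pseudocounts of 0.5 and 5, no filter, a mean of at least 50, single libraries, leaving out each mouse, leaving out mice with Myl7 of at least 500, and 1 fit of all groups. Leaving out wt_f_143 and wt_f_144 was added after seeing the data.

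The members and lists were chosen with earlier results of these data known. Named are all members, 8 fixed partners, each other clock gene past the threshold, up to 3 genes per response list and the genes most like Dbp or Bhlhe40. Arntl2 and the ratio of Dbp bins were chosen after their values were seen. One of the genes that this rule names is not reported here.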

Additional observations from a re-analysis of the deposited data

Results flagged for a closer look

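Of 94 sets of 5 mice checked over 24 named genes, 2 held a mouse whose gap to the nearest mouse, as a share of the group's range, was above Dixon's critical value. That critical value is set so that chance flags about 1 in 20. Clock in knockout male ko_m_97 was 184.8, against 233.9 to 243.5 in the other knockout males, and that mouse also had the highest Dbp of its group at 710.7. Cys1 in knockout female ko_f_155 was 99.8, against 114.0 to 116.4 in the other knockout females, and that mouse also had the highest Dbp of its group at 725.3.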

How the results depend on the processing

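The calls of Bhlhe40 and Bhlhe41 in males held under every alternative run. In females leaving out 1 mouse gave 1 to 3 members, 1 being left without ko_f_95, ko_f_154, ko_f_155, wt_f_140, wt_f_141, wt_f_143 or wt_f_144. The females' count of 2 members was 1 with library 1 of each mouse, 0 without the mice with Myl7 of at least 500, 1 without wt_f_143 and wt_f_144, and 5 with all 4 groups in 1 fit, which adds Nr1d1, Per2 and Per3. The authors' deposited table, with libraries as replicates, passes 4 members in males and 7 in females, 13 and 13 of the other clock genes, and 3986 and 3604 of all genes. At an adjusted p under 0.01, 2 exon bins remained in it. For the difference between the sexes, 49 genes passed with DESeq2, 2 with library 1, 4 with library 2, 3 without wt_f_143 and wt_f_144, and 0 to 14 without 1 mouse, with no member in any of these. The cause of these changes was not tested.

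The values below turned their sign, and no log2 change among them had passed. In females, without wt_f_143 and wt_f_144, these were Clock (0.12), Rora (-0.18), Tef (-0.18) and Usp2 (-0.071), and Rora was -0.070 without the mice with Myl7 of at least 500. Without 1 mouse, Rora ranged from -0.062 to 0.16, Tef from -0.026 to 0.23 and Usp2 from -0.016 to 0.17 in females, lowest without wt_f_144. In males edgeR gave Hlf 0.00026 and Nfil3 -0.0035, and DESeq2 gave Nfil3 -0.0016, as did the authors' deposited table at -0.0034. Library 1 gave Hlf 0.076, and library 2 gave Nr1d2 -0.019, Rora -0.0068, Nfil3 -0.046 and Ciart -0.12. Without the mice with Myl7 of at least 500, Nr1d2 was -0.012 and Ciart -0.041 in males. Without 1 mouse, the males' values ranged from -0.090 to 0.029 for Per3, -0.20 to 0.078 for Per1, -0.062 to 0.083 for Nr1d2, -0.096 to 0.081 for Hlf, -0.093 to 0.15 for Nfil3, -0.14 to 0.30 for Ciart and -0.039 to 0.21 for Tcap. As males minus females, Bhlhe41 was -0.0024 with edgeR, -0.011 with DESeq2, -0.018 with library 1 and -0.094 to 0.11 without 1 mouse. Cry1 was -0.033 with edgeR, -0.039 with DESeq2, -0.072 with library 1 and -0.070 to 0.093 without 1 mouse, and -0.013 without wt_f_143 and wt_f_144, where Dbp was 0.023, against -0.71 with all mice, Nr1d1 0.26, against -0.45, and the r of Per2 with Dbp -0.091, against 0.55.

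No paired analysis was possible because the groups share no replicate numbers. With 5 mice a group, changes smaller than the spread among mice, and some larger ones, could miss the threshold, most of all for Dbp, Nr1d1 and Per1. Nr1d1 in females changed by 1.10 on the log2 scale, against an SD within groups of 0.65, and did not pass (limma, adjusted p 0.0878). The p-values rest on that spread.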

Other observations

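Genes that answer to glucocorticoids, which follow the day and also induce Per1, were counted beside the clock. Of 9 tested in each sex, 0 rose and 3 fell in males, with a median log2 change of -0.25, and 2 rose and 0 fell in females, with a median of 0.33. Of all genes tested, 7.6% rose and 8.29% fell in males, and 5.28% rose and 5.51% fell in females. Pdk4, a kinase that holds back glucose oxidation, had 363 to 1218 in knockout males, against 1318 to 4886 in wildtype males (log2 change -1.61 ± 0.36, adjusted p 0.00609). Mt1, a metallothionein, had 500.5 to 915.7 in knockout males, against 1234 to 2128 in wildtype males (-1.05 ± 0.17, adjusted p 0.000618), and Sgk1 fell by 0.43 ± 0.12 (adjusted p 0.02). In females Tsc22d3, the glucocorticoid-induced leucine zipper gene, had 1379 to 2223 in knockouts, against 778.6 to 1529 in wildtypes (0.74 ± 0.17, adjusted p 0.0129), and Lcn2 had 35.0 to 44.1 in knockouts, against 15.4 to 33.3 in wildtypes (0.80 ± 0.20, adjusted p 0.0204). Mt1 had a log2 change of -0.28 ± 0.09 in females and did not pass (adjusted p 0.0639). The call of Lcn2 was lost without ko_f_95, wt_f_140 or wt_f_141 (adjusted p 0.0516 to 0.0553), and that of Sgk1 in 3 of the 10 fits without 1 mouse. Lcn2 also lost its call with library 1 of each mouse (adjusted p 0.0615) and without the mice with Myl7 of at least 500 (0.087). Sgk1 also lost it with library 1 (adjusted p 0.055) and with all 4 groups in 1 fit (0.0556). The difference between the sexes did not pass for any of these 5 genes, with adjusted p-values of 0.218 to 0.427.

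Of 9 tested hypoxia genes, 0 rose and 1 fell in each sex, the same gene, with medians of -0.02 in males and 0.01 in females, where 8.29% of all genes fell in males and 5.51% in females. That gene was Egln3, an oxygen-sensing prolyl hydroxylase. It had 464 to 570.3 in knockout males, against 641 to 908 in wildtype males (log2 change -0.56 ± 0.09, adjusted p 0.000834), and 559 to 632.7 in knockout females, against 740.2 to 1032 in wildtype females (-0.50 ± 0.10, adjusted p 0.00604). Hk2 and Ndrg1 in males, and Pfkfb3 and Hk2 in females, were next by p and did not pass.

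Arntl2, the paralogue of Arntl, lay under the filter and was not tested. It had 0.6 to 7.6 in knockout males, against 0.0 to 2.0 in wildtype males, and 7.7 to 12.9 in knockout females, against 0.0 to 1.5 in wildtype females, where the groups did not overlap. The authors' deposited table gives it log2 fold changes of 1.74 in males (adjusted p 0.0466) and 3.54 in females (adjusted p 1.13e-08), with libraries as replicates.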
